A study of Mus musculus with 20 samples.

Results

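Brown fat burns fuel to make heat, and around the mouse thoracic aorta a layer of such fat lies against the vessel wall. Described here are 10 genes of that heat programme in RNA of the aortic endothelium: Ucp1, Cidea, Adrb3, Dio2, Ppargc1a, Prdm16, Pdk4, Cpt1b, Elovl3 and Kcnk3. They were chosen by symbol from the 32081 genes of the deposited FPKM table. All 10 were among the 20442 genes with variance-stabilized values, and all 10 were among the 16848 genes tested.

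The 20 libraries came from female Apoe-/- mice of strain B6.129P2-Apoetm1Unc/J, kept on regular chow, so every group lacked apolipoprotein E. Every mouse had 5/6 nephrectomy at 9 weeks of age, a surgery that causes chronic kidney disease, and 1 retro-orbital injection 7 weeks later. Tissue was taken 1 week after the injection. The dual group of 4 mice received 4 mg of high-density lipoprotein (HDL) with LNA92a and LNA489, each at 20 mg/kg, for 40 mg/kg in total. The LNA92a group and the LNA489 group, 4 mice each, received 4 mg of HDL with that inhibitor alone at 20 mg/kg. The HDL group (4 mice) received 4 mg of HDL, and the saline group (4 mice) received saline. LNA92a and LNA489 are locked nucleic acid oligonucleotides against miR-92a-3p and miR-489-3p, and no group received a control oligonucleotide. Each library is 1 mouse, named here by its group and animal number. The endothelium was sheared off the aorta and lysed with qiazol, with no sorting of cells described in the labels.

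In brown adipocytes noradrenaline acts on the beta3-adrenergic receptor, cyclic AMP rises, lipid droplets release fatty acids, and uncoupling protein 1 lets protons leak across the inner mitochondrial membrane so that respiration yields heat. Thyroid hormone, activated inside the cell by deiodinase 2, and the coactivator PGC-1alpha raise the transcription of this programme. Perivascular brown fat of the mouse thoracic aorta expresses the same genes.

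Promoters are shown for genes of this programme whose proximal sequence holds the core of a cyclic AMP response element, and for Prdm16, which behaved differently from the other 9 genes below. RefSeq promoter sequences on GRCm38.p6 were found for 5 of the 10 genes. Each line gives the 250 bases before the RefSeq start, 5′ to 3′ on the gene's strand. Capitals mark TGACG in either orientation. Ucp1 lies at chr8:83290098-83290347 on the plus strand, and Dio2 at chr12:90739039-90739288, Ppargc1a at chr5:51567726-51567975 and Prdm16 at chr4:154636874-154637123 on the minus strand.
Ucp1: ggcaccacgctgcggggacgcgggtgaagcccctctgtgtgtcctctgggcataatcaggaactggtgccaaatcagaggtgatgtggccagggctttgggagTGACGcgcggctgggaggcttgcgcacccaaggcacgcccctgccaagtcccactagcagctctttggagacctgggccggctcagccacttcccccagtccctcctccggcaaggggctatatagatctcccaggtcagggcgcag
Dio2: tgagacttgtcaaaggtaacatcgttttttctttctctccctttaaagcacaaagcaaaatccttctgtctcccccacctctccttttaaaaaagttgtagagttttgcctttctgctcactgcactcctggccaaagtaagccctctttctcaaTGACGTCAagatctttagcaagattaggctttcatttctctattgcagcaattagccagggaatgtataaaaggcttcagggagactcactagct
Ppargc1a: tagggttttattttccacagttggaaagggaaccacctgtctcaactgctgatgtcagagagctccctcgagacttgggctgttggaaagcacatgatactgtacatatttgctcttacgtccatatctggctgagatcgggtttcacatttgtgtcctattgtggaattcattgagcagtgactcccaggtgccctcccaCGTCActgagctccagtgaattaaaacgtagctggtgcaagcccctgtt
Prdm16: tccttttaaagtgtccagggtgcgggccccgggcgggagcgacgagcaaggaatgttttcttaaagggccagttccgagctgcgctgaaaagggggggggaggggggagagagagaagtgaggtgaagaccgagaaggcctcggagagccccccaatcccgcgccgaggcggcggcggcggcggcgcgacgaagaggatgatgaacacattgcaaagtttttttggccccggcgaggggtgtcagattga
The core TGACG was present on either strand in Ucp1, Dio2 and Ppargc1a, 3 of these 5 promoters, with Pdk4 and Prdm16 lacking it in this window. It was present in 17.8% of all 32851 promoters of this length. The whole palindrome TGACGTCA, which contains the core on both strands, was found in Dio2 alone of the 5, and in 1.55% of all promoters. In Dio2 its first base lay 95 bases before the start, and a TATAAA began 30 bases before the start, a match held by 12.4% of all promoters. In Ucp1 the TGACG began 147 bases before the start, and AGGTCA, a nuclear receptor half-site held by 14% of all promoters, began 14 bases before it. These matches are letters in a window and were not tested for binding.

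Sequencing depth was 11.6 to 21.4 M (mega) reads assigned to genes per library. The share of 18S ribosomal RNA was highest in the LNA92a group, 16.5% ± 7.16, against 7.07% ± 2.71 in the HDL group (SD, n = 4 each), which lowers FPKM of all other genes there. FPKM is fragments per kilobase of gene and M assigned reads. The log2 values are the deposited variance-stabilized counts, on which tests were run. Defining endothelial genes were present in every library but ranged widely: Pecam1, an endothelial adhesion molecule, was lowest in HDL mouse 4 at 10.8 FPKM and highest in HDL mouse 23 at 1009 FPKM. The adipocyte hormone gene Adipoq also ranged widely, from 3.33 FPKM in saline mouse 9 to 373 FPKM in LNA92a mouse 12.

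Ucp1, the uncoupling protein itself (chromosome 8, 83290352 to 83298452, plus strand, GENCODE M21 on GRCm38), had the highest mean of the 10 genes, 378 FPKM over 20 libraries. In the dual group it had 905 FPKM in mouse 8, 538 in mouse 10, 188 in mouse 15 and 12.7 in mouse 21. The LNA92a group had 676 FPKM in mouse 5, 1229 in mouse 12, 169.6 in mouse 17 and 120.2 in mouse 18. The LNA489 group had 479.6 FPKM in mouse 7, 33.2 in mouse 13, 601 in mouse 14 and 476 in mouse 19. Mouse 13 thus stood far below the other 3 mice of its group. In the HDL group Ucp1 had 16.9 FPKM in mouse 3, 912 in mouse 4, 57.2 in mouse 11 and 115 in mouse 23. The saline group had 564 FPKM in mouse 1, 409 in mouse 2, 11.1 in mouse 9 and 52.9 in mouse 24. The highest library was 111 times the lowest, and each group held a spread of at least 10.2-fold, so all 5 groups overlapped. Group means stood in the order LNA92a (549 FPKM), dual (411), LNA489 (397), HDL (275) and saline (259), and the ranges of all neighbours in this order overlapped. Every library held at least 315 Ucp1 reads.

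Cidea, a lipid droplet protein of brown adipocytes (chromosome 18, plus strand), came next with a mean of 168 FPKM. In the dual group it had 293 FPKM in mouse 8, 144 in mouse 10, 510.3 in mouse 15 and 4.88 in mouse 21. Mouse 15 was the highest of all 20 libraries for Cidea while it ranked in the middle for Ucp1. The LNA92a group ranged from 66.1 to 358 FPKM (median 159) and the LNA489 group from 10.8 to 289 FPKM (median 178). The HDL group ranged from 5.35 to 422 FPKM (median 31.9) and the saline group from 1.19 to 259.9 FPKM (median 123). The lowest library, saline mouse 9, was also the lowest for Ucp1.

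Adrb3, the receptor that starts the adrenergic signal (chromosome 8, minus strand), averaged 4.65 FPKM. It was highest in LNA92a mouse 12 at 26.2 FPKM and next in dual mouse 15 at 14.6 FPKM. It was lowest in dual mouse 21, with 3 reads and 0.055 FPKM. An antisense gene, Gm45470, covers 839 of its exonic bases, and the strand used in counting was not given in the sources used here. Gm45470 itself averaged 0.194 FPKM, so it is weakly counted in these libraries.

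Dio2, which makes the active thyroid hormone inside the cell (chromosome 12, minus strand), averaged 7.35 FPKM. The dual group had 35.2 FPKM in mouse 8, 6.24 in mouse 10, 1.5 in mouse 15 and 0.468 in mouse 21. Mouse 8 was the highest of the 20 libraries and mouse 21 the lowest, so this group alone spanned the whole range. LNA92a mice had 6.83, 14.9, 4.61 and 4.07 FPKM, and LNA489 mice 15.1, 2.52, 13.9 and 13.3 FPKM. HDL mice had 0.585, 7.3, 1.02 and 2.14 FPKM, and saline mice 5.44, 9.29, 1.82 and 0.789 FPKM. The values of the LNA92a and LNA489 mice overlapped with those of the HDL mice only through HDL mouse 4, the HDL mouse richest in fat genes. For LNA92a the same held for Ucp1, Cidea, Elovl3, Ppargc1a, Kcnk3 and Pdk4, so it is not particular to Dio2. It was seen in the values, and its share over all genes was not counted.

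Ppargc1a encodes PGC-1alpha, the coactivator of mitochondrial biogenesis (chromosome 5, minus strand). It ranged from 0.349 FPKM in saline mouse 9 to 8.49 FPKM in HDL mouse 4, a 24.3-fold range, with a mean of 3.17. Prdm16, a zinc finger factor that holds brown adipocyte identity and is also known in arterial endothelium of mice (chromosome 4, minus strand), averaged 3.83 FPKM. It was 2.71, 3.27, 1.49 and 7.46 FPKM in dual mice 8, 10, 15 and 21. It was 0.785, 1.69, 4.1 and 3.76 FPKM in LNA92a mice 5, 12, 17 and 18. In the LNA489 group it ranged from 1.45 to 3.4 FPKM. The mouse poorest in Ucp1 in the dual group, mouse 21, was thus the richest in Prdm16. HDL mice 3, 4, 11 and 23 had 8.06, 1.09, 1.97 and 11.7 FPKM of Prdm16, and saline mice 1, 2, 9 and 24 had 1.26, 1.59, 3.08 and 13.5 FPKM. Again the lowest HDL value was in mouse 4, the highest HDL mouse for Ucp1.

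The fuel genes came at very different levels. Pdk4, the kinase that turns off pyruvate dehydrogenase and so spares glucose for fatty acid use (chromosome 6, minus strand), averaged 91.4 FPKM, from 2.36 FPKM in saline mouse 9 to 289 FPKM in HDL mouse 4. Elovl3, an elongase of very long chain fatty acids (chromosome 19, plus strand), averaged 10.2 FPKM and was highest in dual mouse 8 at 44.3 FPKM. It had 0 reads in dual mouse 21, LNA489 mouse 13 and saline mouse 9, which allows up to 0.116 to 0.131 FPKM (3 reads, counting error only). These 3 libraries were also the lowest of their groups for Ucp1. Cpt1b, the carnitine palmitoyltransferase of muscle and brown fat (chromosome 15, minus strand), was the weakest gene, with 0.758 FPKM on average and at most 132 reads. It had 0 reads in HDL mouse 3, which allows up to 0.0721 FPKM. Of its 3372 exonic bases, 2744 are shared with the read-through gene Gm44502 on the same strand, so its counts are uncertain. Kcnk3, the background potassium channel TASK-1, which is abundant in mouse brown fat (chromosome 5, plus strand), averaged 20.6 FPKM and ranged 182-fold, from 0.419 FPKM in saline mouse 9 to 76.4 FPKM in saline mouse 2.

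**Figure D1:**
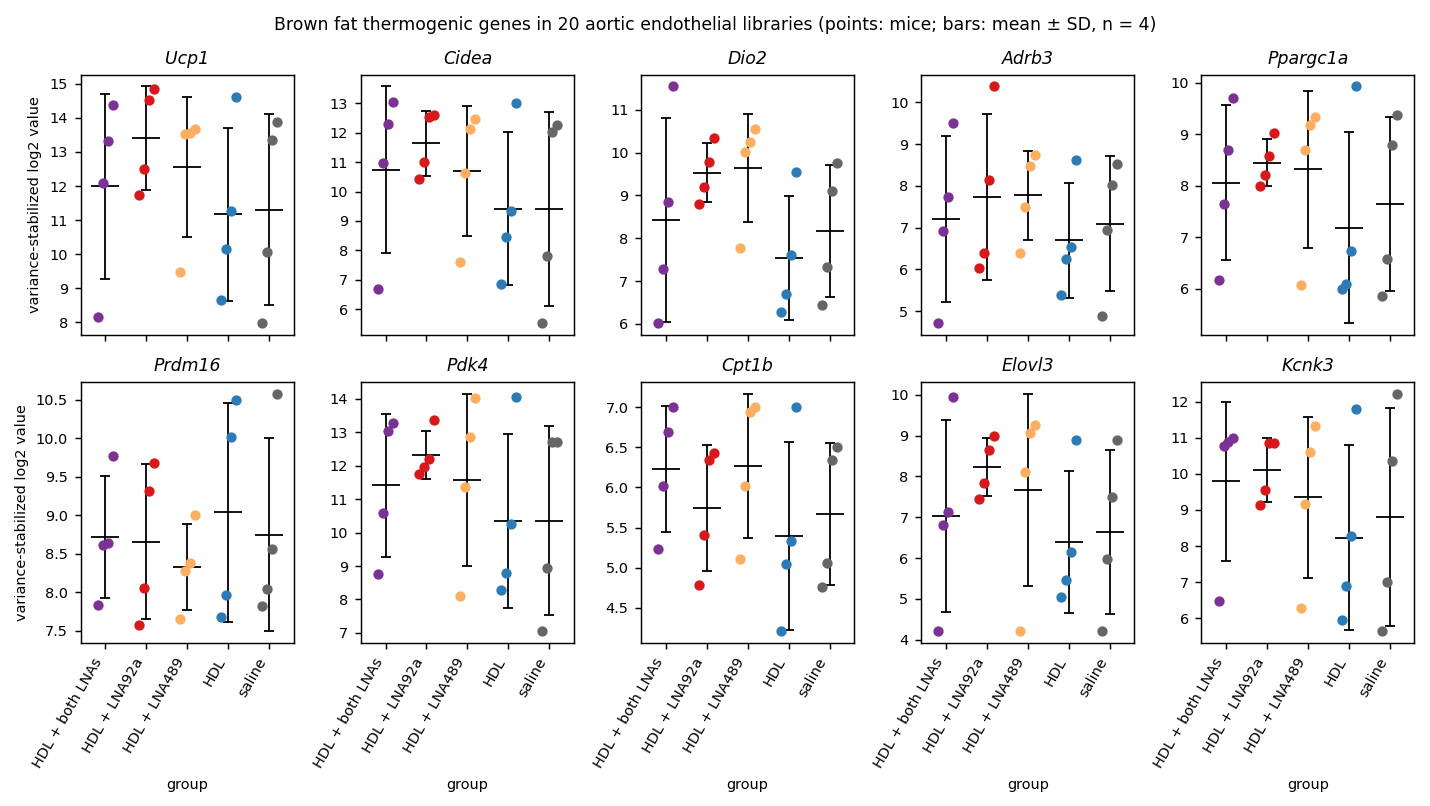
Variance-stabilized log2 value (y axis) of each of the 10 genes by group (x axis), with 1 point per mouse and bars for mean ± SD (n = 4 mice per group). Ucp1 spreads widely inside every group, while the spread of other genes differs between groups. For Ppargc1a the SD is 0.455 in LNA92a mice and 1.86 in HDL mice. Ucp1 in LNA489 mouse 13 lies at 9.49, below 13.53 to 13.67 in the other 3 mice of that group.

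Of these genes, 9 went up and down together with fat, and Prdm16 did not. Their level was set against the mean log2 value of 18 pan-adipocyte genes (among them Adipoq, Plin1, Fabp4 and Pparg), none of which belongs to the 10. Pearson's r over 20 libraries was 0.94 for Ucp1, 0.97 for Cidea, 0.88 for Adrb3, 0.83 for Dio2, 0.94 for Ppargc1a, 0.94 for Pdk4, 0.91 for Cpt1b, 0.89 for Elovl3 and 0.95 for Kcnk3. For Prdm16 it was -0.63. All 10 had an adjusted permutation p of at most 0.00632 over 20 relations (100000 permutations, 2-sided, smallest possible p 1e-05), and Spearman's rho ran from 0.74 to 0.96 for the 9 genes and was -0.63 for Prdm16. An r of at least 0.8 with this mean was reached by 9 of the 10 genes and by 9.45% of all 16848 genes tested. An r of -0.4 or lower was reached by Prdm16 and by 35.3% of all genes, so its direction is a common one here.

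Leaving out the 2 libraries farthest from the median of the pan-adipocyte mean, r was 0.797 to 0.969 for the 9 genes and -0.65 for Prdm16. With group means removed it was 0.798 to 0.983 for the 9 genes and -0.62 for Prdm16, so the relation was also present among mice given the same treatment. The pan-adipocyte mean had its widest gap between 10.2 and 11.3, with 7 libraries below and 13 above. Below the gap were 1 dual, 0 LNA92a, 1 LNA489, 3 HDL and 2 saline mice. Among the 13 libraries above it, r was 0.64 for Ucp1, 0.9 for Cidea, 0.8 for Adrb3, 0.69 for Ppargc1a, 0.71 for Pdk4, 0.88 for Cpt1b, 0.68 for Kcnk3 and -0.75 for Prdm16, but 0.21 for Dio2 and 0.41 for Elovl3. Among the 7 libraries below it, r was 0.86 for Ucp1, 0.8 for Cidea and 0.9 for Adrb3, from 0.35 to 0.71 for the other 6 of the 9 genes, and 0.09 for Prdm16. None of the 9 genes kept an adjusted permutation p under 0.05 in these 7 libraries. Above the gap 2 of the 10 genes lost it. Dio2 and Elovl3 thus had the weakest relations above the gap, where dual mouse 15 lies. Over the 19 libraries on both sides of the gap without that mouse, r was 0.92 for Dio2 and 0.93 for Elovl3. Over all 20 libraries it was 0.83 and 0.89. The r above the gap without mouse 15 was not computed, so its part in the weak relations there was not tested. In bulk RNA fewer adipocytes and less RNA per adipocyte cannot be told apart.

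**Figure D2:**
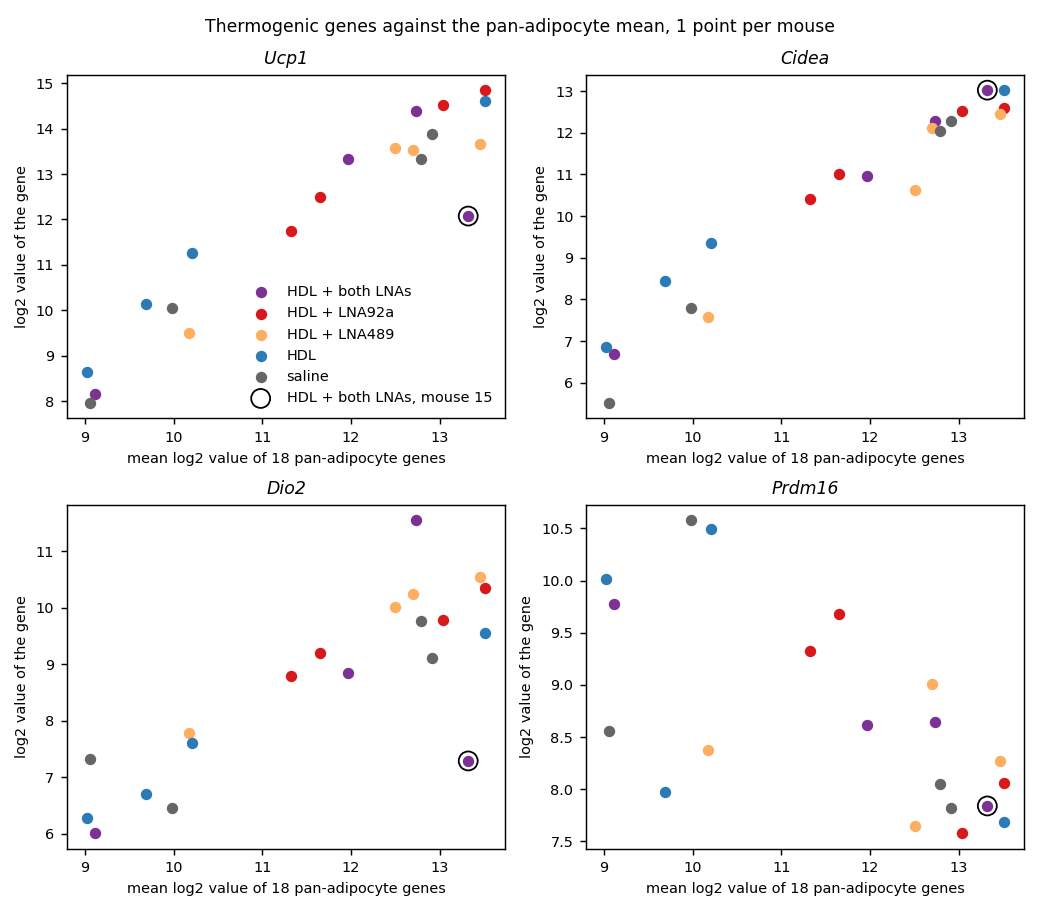
Log2 value (y axis) of Ucp1, Cidea, Dio2 and Prdm16 against the mean log2 value of 18 pan-adipocyte genes (x axis), with 1 point per mouse coloured by group and a ring around dual mouse 15. Ucp1 and Cidea climb with the fat genes (r = 0.94 and 0.97), Prdm16 runs down (r = -0.63), and the ringed library lies below libraries of like pan-adipocyte mean for Ucp1 and Dio2.

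Among themselves the 9 genes had pairwise r of 0.595 to 0.965 over 36 pairs (median 0.88), with Cidea and Kcnk3 the closest pair and Dio2 and Adrb3 the loosest. The 9 pairs with Prdm16 had r from -0.616 to -0.41. In a relation chosen after the data were seen, Prdm16 instead followed the endothelium. Its r with the mean of 11 endothelial genes (among them Pecam1, Cdh5 and Vwf) was 0.93, with a Spearman's rho of 0.95 and an adjusted permutation p of 2.86e-05 over 140 relations, and r was 0.93 without the 2 farthest libraries. For the other 9 genes that r was -0.72 to -0.46, and an r of at least 0.8 with the endothelial mean was reached by 3.97% of all genes. Prdm16 per 100 FPKM of Pecam1 was 0.858 to 3.64 in dual mice, 0.769 to 4.42 in LNA92a mice, 1.33 to 3.75 in LNA489 mice, 1.159 to 10.1 in HDL mice and 1.58 to 5.4 in saline mice. Its highest value was in HDL mouse 4, the library with the least Pecam1, so Prdm16 was not held in 1 fixed proportion to Pecam1.

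Heart muscle genes were also present in these scrapings. The mean of 12 cardiac genes was 7.43 to 10.05 log2 units in LNA92a mice and 5.28 to 6.68 in HDL mice, and it had r of 0.33 to 0.6 with the 9 genes and -0.28 with Prdm16. Over the same 20 relations, 7 of the 9 genes passed an adjusted permutation p of 0.05 with the cardiac mean, and Adrb3 (adjusted p = 0.0599) and Cpt1b (0.168) did not. By Spearman's rho, which ran from 0.28 to 0.58 for the 9 genes, 3 of the 9 passed, with adjusted permutation p of 0.0441 for Ucp1, 0.0149 for Dio2 and 0.0251 for Elovl3. By Pearson's r, Adrb3 and Cpt1b passed without LNA92a mouse 18 (r = 0.62 for Adrb3 and 0.56 for Cpt1b) and without HDL mouse 4 (0.54 and 0.47). Adrb3 also passed without dual mouse 15 (0.49). The Ppargc1a r with the cardiac muscle mean no longer passed without dual mouse 21 (adjusted permutation p = 0.0556), HDL mouse 3 (0.0518) or saline mouse 9 (0.0526). An r of at least 0.8 with the cardiac mean was reached by 0 of the 10 genes and by 0.297% of all genes. Cpt1b and Pdk4 are also muscle genes. In the library with the highest cardiac mean, LNA92a mouse 18, where the heart genes Myh6 and Tnni3 had 83.5 and 98.7 FPKM, Cpt1b had 2 reads (0.051 FPKM) and Pdk4 had 65.1 FPKM, against a 20-library median of 62.5 FPKM. Measured from the line of each gene on the pan-adipocyte mean, this library was the highest of 20 for Pdk4 (1.145 log2 units above the line) and the lowest for Cpt1b (-0.93). The part of heart RNA in the levels of the 10 genes was not tested.

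**Figure D3:**
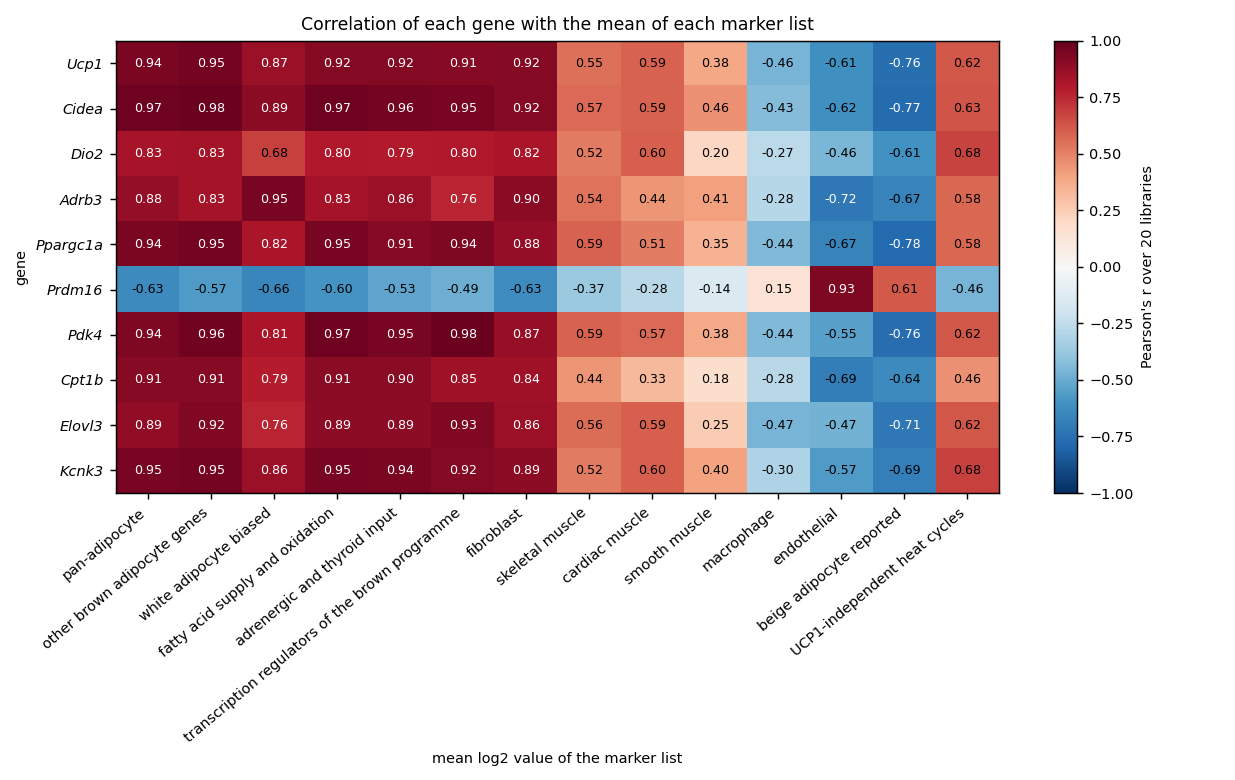
Pearson's r over 20 libraries between each of the 10 genes (rows) and the mean log2 value of each of 14 marker lists (columns), red for positive and blue for negative. Every gene but Prdm16 is red under the pan-adipocyte, other brown, white-biased and fatty acid lists and blue under the beige and endothelial lists; Prdm16 has the opposite signs and reaches 0.93 with the endothelial list.

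Other brown adipocyte genes and white-biased genes both followed the same axis. For the 9 genes, r with the mean of 16 other brown adipocyte genes was 0.83 to 0.98, and with 9 genes biased to white adipocytes 0.68 to 0.95, the highest being Adrb3. The respiratory chain subunits of brown fat and heart, Cox8b and Cox7a1, ranged from 7.18 to 552 FPKM and from 2.89 to 286 FPKM. Among white-biased hormones, Lep, leptin, reached 7.26 FPKM in dual mouse 15 with a 20-library median of 0.291 FPKM, and Retn, resistin, reached 85.9 FPKM in LNA92a mouse 12. Nnat, neuronatin, ranged from 0.454 to 6.74 FPKM and Wt1, a marker of visceral white fat and mesothelium, from 0.287 to 19.5 FPKM. The mean of 4 tested genes reported for beige adipocytes ran against the 9 genes, with r of -0.78 to -0.61. Of these, Ear2 was highest in saline mouse 9 at 102 FPKM, Tbx1 in saline mouse 24 at 35.1 FPKM and Sp100 in HDL mouse 11 at 52.1 FPKM, 3 libraries that all lay below the gap in the pan-adipocyte mean. Saline mouse 9 was also the highest library for the macrophage genes Gpnmb (1584 FPKM) and C1qb (965 FPKM). The mean of the endothelial genes was 12.2 in saline mouse 24 and 9.69 in HDL mouse 11, against a 20-library median of 10.8. Which cells these 4 genes came from was not tested.

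Lists of genes upstream and downstream in the programme were correlated with it by their means. The mean of the 14 tested genes of adrenergic and thyroid input had r of 0.79 to 0.96 with the 9 genes. Most abundant of the 14 were Prkar2b, a regulatory subunit of protein kinase A (3.04 to 190.2 FPKM), Prkaca, its catalytic subunit (16.9 to 68.5 FPKM), and Rgs2, a brake on G protein signalling (6.41 to 55.6 FPKM). For the mean of the 14 tested transcription regulators r was 0.76 to 0.98, the highest with Pdk4. Their most abundant genes were Zbtb16, Nfia and Cebpb. Of these, Nfia ranged from 7.41 FPKM in HDL mouse 11 to 35.7 FPKM in HDL mouse 23, both below the gap in the pan-adipocyte mean. For the mean of the 16 genes of fatty acid supply and oxidation r was 0.8 to 0.97. That list was led by the acyl-CoA dehydrogenases Acadl (30.4 to 566 FPKM) and Acadm (10.8 to 302 FPKM) and the thiolase Acaa2 (18.6 to 419 FPKM). For all 9 genes and each of these 3 lists the adjusted permutation p over 140 relations was at most 0.000376. The mean of the 8 genes of heat cycles that do not need UCP1 had weaker r, 0.46 to 0.68. Atp2a2, the calcium pump SERCA2 of that list, ranged from 22.2 to 58.4 FPKM.

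Markers of other cells were present too, and each r below is with the mean of the list. Fibroblast genes, led by Dcn (67.9 to 2043 FPKM), Dpt and Col1a1, had r of 0.82 to 0.92 with the 9 genes. Smooth muscle genes, led by Acta2, Des and Myh11, had r of 0.18 to 0.46, with 0 of the 9 genes past an adjusted permutation p of 0.05. Macrophage genes, led by Lyz2, Gpnmb and C1qb, had r of -0.47 to -0.27, also with 0 of the 9 past that threshold. Skeletal muscle genes, led by Acta1, Tnnt3 and Mylpf, had r of 0.44 to 0.59 and were highest in LNA489 mouse 14, where Acta1 reached 822 FPKM.

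Outside the 10 genes, those whose log2 value was most like that of Ucp1 over the 20 libraries were Gpd1 (r = 0.978), Dgat2 (0.974), G0s2 (0.972), Fam195a (0.967), Prkar2b (0.964), Cib2 (0.963), Mpc2 (0.963) and Gstz1 (0.96). Gpd1 makes glycerol-3-phosphate, Dgat2 completes triglyceride synthesis, G0s2 inhibits the lipase ATGL and Mpc2 carries pyruvate into mitochondria. The single nearest gene was Cdo1 for Cidea (r = 0.988), Glb1l2 for Adrb3 (0.96), Gk for Dio2 (0.92), Ehhadh for Ppargc1a (0.977) and Asap2 for Prdm16 (0.972). It was Bnip3 for Pdk4 (0.988), Letmd1 for Cpt1b (0.943), Ptgfr for Elovl3 (0.951) and Adora1 for Kcnk3 (0.969). These were picked as the highest of all genes tested, so their r is a description.

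None of the 10 genes passed the test for a difference between treatments. In limma's moderated test over the 5 groups (15 residual degrees of freedom), adjusted over 16848 genes at 0.05, 0 of 10 members were called in LNA92a against HDL, 0 of 10 in LNA489 against HDL, 0 of 10 in dual against HDL, 0 of 10 in HDL against saline, and 0 of 10 for any difference among the 5 groups. Over all genes the share called was 0% in each of these, and no member had an unadjusted p under 0.05, against 3.53%, 3.79%, 2.47%, 1.67% and 1.68% of all genes in that order. Limma's voom on recovered reads also called 0 members in each, and 0 had an unadjusted p under 0.05. With limma's library weights 0 were called, and 8, 4, 6, 0 and 1 of the 10 had an unadjusted p under 0.05 in that order of tests, against 3208, 3169, 3214, 899 and 1718 of 16848 genes. When HDL mouse 4 was left out, 6, 3 and 1 of 10 did for LNA92a, LNA489 and dual against HDL. The counts over all genes were then 2860, 2297 and 1466. For LNA489 against HDL 1 of 10 did on log2 FPKM plus 0.1 (506 of 16848 genes) or plus 1 (528). The same held without a filter on low values (850 of 20442) and without LNA489 mouse 13 (1317 of 16848). Without dual mouse 8, 1 of 10 did for any difference among the 5 groups (243 of 16848). For no member did the groups compared fail to overlap, against 2.22% of all genes for LNA92a and HDL, 1.54% for LNA489 and HDL, 1.88% for dual and HDL, and 0.973% for HDL and saline. The 3 inhibitor comparisons share the same 4 HDL mice.

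The intervals were wide. Ucp1 averaged 13.4 ± 1.52 log2 units in LNA92a mice and 11.17 ± 2.53 in HDL mice (SD, n = 4 each), a difference of 2.23 with a standard error of 1.52, a 95% interval of -0.97 to 5.43 and a limma adjusted p of 0.867. It averaged 12.56 ± 2.05 in LNA489 mice, 1.39 above HDL (interval -1.81 to 4.59), and 11.99 ± 2.72 in dual mice, 0.82 above HDL (interval -2.38 to 4.02). HDL stood 0.14 below saline, at 11.17 ± 2.53 against 11.31 ± 2.8. Each of these intervals spans 0. Dio2 came nearest to the threshold, 2.11 above HDL in LNA489 mice (standard error 1.01, unadjusted p = 0.0506, limma adjusted p = 0.92) and 2 above HDL in LNA92a mice (unadjusted p = 0.0625, limma adjusted p = 0.867).

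As a group, 9 of the 10 genes had a higher mean than in HDL in each inhibitor group, with Prdm16 the exception each time. Over all genes the share higher was 44.2% for LNA92a, 44.8% for LNA489 and 46.4% for dual. The 9 genes rose and fell together and the 3 comparisons share the same HDL mice, so these counts are not independent. The median difference of the 10 genes was 1.86 log2 units for LNA92a, 1.183 for LNA489 and 0.85 for dual, where the median over all genes was -0.06, -0.05 and -0.03. Single libraries moved these medians by over 1.5 times. For LNA92a the median was 1.24 without HDL mouse 3. For LNA489 it was 0.59 without HDL mouse 3, 0.71 without LNA489 mouse 7, 2.21 without HDL mouse 4 and 2.22 without LNA489 mouse 13. For dual it was 0.43 without dual mouse 8, 0.45 without HDL mouse 3, 0.54 without HDL mouse 11, 1.63 without dual mouse 21 and 1.67 without HDL mouse 4. All of these medians stayed above 0. With library weights the medians were 2.29, 2.17 and 1.81 for LNA92a, LNA489 and dual. Between HDL and saline, 2 of the 10 were higher in HDL, Cidea and Prdm16, with a median difference of -0.26 against 0.03 over all genes. Without HDL mouse 11 and saline mouse 2, 10 of 10 were higher in HDL with a median of 0.61, and 0 were called. Leaving out this pair was not planned. It was chosen on earlier results of these data for B cell and adrenal cortex genes, which are not shown here. Leaving out 1 library at a time, the median between HDL and saline ran from -1.21 (without HDL mouse 4) to 0.29 (without saline mouse 2), and it was also above 0 without HDL mouse 3 (0.16) or saline mouse 1 (0.02). The data thus give no steady direction between HDL and saline. The pan-adipocyte genes did the same: 18 of 18 had a higher mean in each inhibitor group (medians 1.93, 1.65 and 1.12 for LNA92a, LNA489 and dual), and 17 of 18 a lower mean in HDL than in saline (median -0.58). The pan-adipocyte mean was 11.3 to 13.5 in LNA92a mice, 10.2 to 13.5 in LNA489 mice, 9.11 to 13.3 in dual mice, 9.02 to 13.5 in HDL mice and 9.06 to 12.9 in saline mice. Among cardiac genes, 10 of 12 had a higher mean in LNA92a than in HDL (median 3.25), and 9 of these 12 had an unadjusted p under 0.05 with 0 called. Cardiac genes had a higher mean than HDL for 12 of 12 in LNA489 (median 1.54) and 11 of 12 in dual (median 0.68), and 1 of 12 was higher in HDL than in saline (median -1.44). Fibroblast genes were higher than HDL for 9 of 9 in each inhibitor group, with medians of 1.41 for LNA92a, 1.56 for LNA489 and 0.68 for dual. Macrophage genes were higher than HDL for 4 of 11 in LNA92a (median -0.13), 11 of 11 in LNA489 (median 0.48) and 11 of 11 in dual (median 1.38, 5 at an unadjusted p under 0.05), and 0 of 11 were higher in HDL than in saline (median -1.10). Endothelial genes were higher than HDL for 2 of 11 in LNA92a (median -0.44), 1 of 11 in LNA489 (median -0.68) and 7 of 11 in dual (median 0.03), and 11 of 11 were higher in HDL than in saline (median 0.29). In each of these lists 0 genes were called, and their part in the differences of the 10 genes was not tested.

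In each list around the programme 0 genes were called. For LNA92a, LNA489 and dual against HDL, the 16 other brown adipocyte genes had medians of 1.57, 1.04 and 0.79, and the 16 fatty acid genes 1.43, 0.99 and 0.76. Adrenergic and thyroid input (14 genes) had medians of 0.5, 0.29 and 0.17, and transcription regulators (14 genes) 0.27, 0.15 and 0.05. The 9 white-biased genes had 1.02, 0.64 and 0.45. The 8 genes of UCP1-independent heat cycles had 0.74, 0.58 and 0.26, with 4 of 8 at an unadjusted p under 0.05 in LNA92a against HDL, 0 of 8 in LNA489 against HDL and 0 of 8 in dual against HDL. In LNA92a against HDL 3.53% of all genes and 9 of 12 cardiac genes reached that threshold. The part of heart RNA in the differences of these 8 genes was not tested. Among the most abundant of these, Atp2a2 was 0.67 above HDL in LNA92a mice and Slc25a4, the heart and muscle ATP/ADP carrier, 1 above, while Ckb, brain creatine kinase, was 0.5 above.

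With the pan-adipocyte mean of each library added to the model (14 residual degrees of freedom), the direction of most of these differences turned. Of the member differences over the 4 comparisons, 29 changed sign and 11 did not, and 0 were called. Ucp1 then lay at -0.11 ± 0.53 (SE) for LNA92a, -0.73 ± 0.52 for LNA489 and -0.74 ± 0.51 for dual against HDL, and at 0.63 ± 0.5 for HDL against saline. The standard error of Ucp1 in the first comparison was 1.52 without this term and 0.53 with it. Median differences of the 10 genes were -0.24, -0.31 and -0.25 against HDL and 0.13 for HDL against saline. In the 4 comparisons, members with an unadjusted p under 0.05 were Cpt1b in LNA92a (-0.57), Cidea (-1.06) and Kcnk3 (-0.96) in LNA489, 0 of 10 in dual, and Cidea in HDL against saline (0.86), against 2.05%, 3.94%, 5.07% and 4.85% of all genes. Cidea had the smallest of these p, 0.00493 in LNA489 against HDL, with a limma adjusted p of 0.999. Dio2 kept positive differences against HDL of 0.7 for LNA92a, 0.93 for LNA489 and 0.03 for dual. The term also takes out any effect of treatment on fat genes as a whole, and the amount of fat and such an effect cannot be told apart here.

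**Figure D4:**
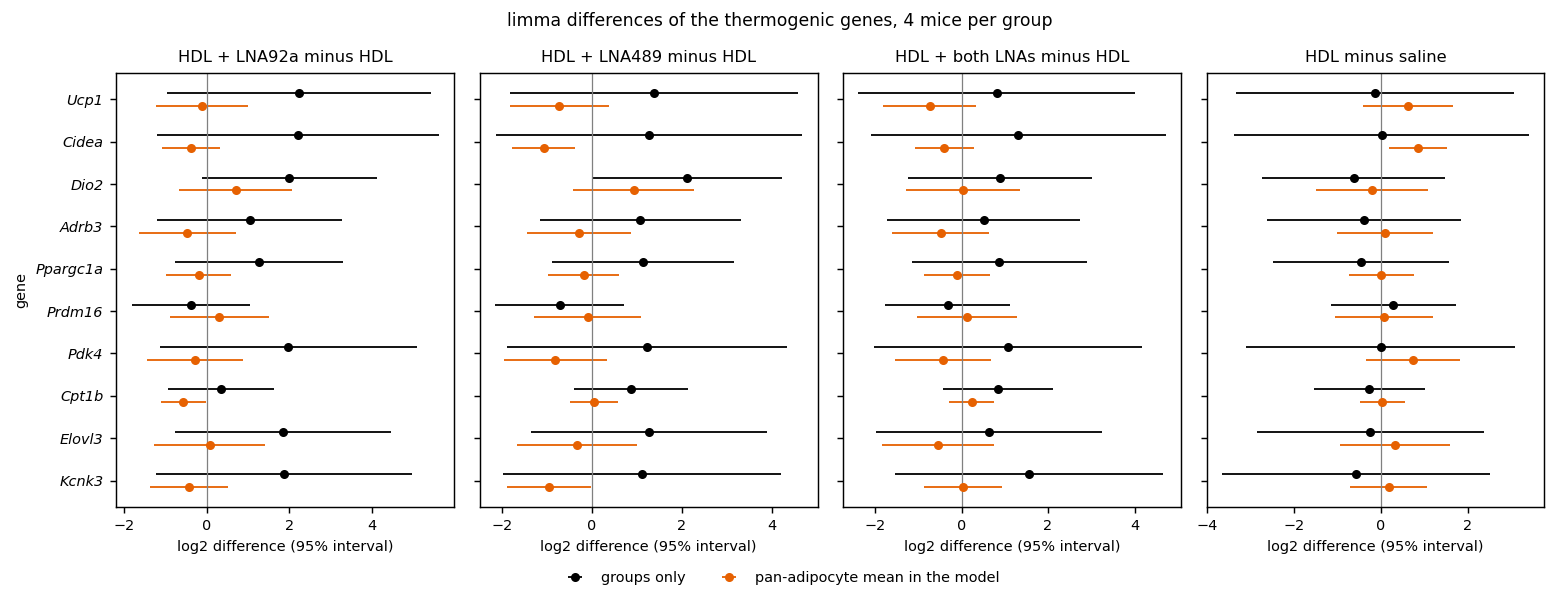
Log2 differences (x axis) of the 10 genes (y axis) with 95% intervals in 4 comparisons, black for the model of group means and orange with the pan-adipocyte mean added. Black intervals all span 0; the orange points move to or past 0 for most genes, and Ucp1 in LNA92a against HDL shifts to -0.11, against 2.23 without the added term.

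Set against Adipoq, Ucp1 did not pass a test between groups. The ratio of Ucp1 to Adipoq FPKM was 3.3 ± 1.94 in dual mice, 2.89 ± 0.75 in LNA92a mice, 2.34 ± 0.646 in LNA489 mice, 2.98 ± 0.769 in HDL mice and 2.72 ± 0.552 in saline mice (SD, n = 4 each). On the log2 scale the difference from HDL was -0.04 for LNA92a, -0.36 for LNA489 and -0.23 for dual, with exact permutation p of 0.8286, 0.2571 and 0.9714, and it was 0.11 for HDL against saline (exact p 0.629). All 4 had an adjusted p of 0.971, and 4 mice against 4 can give no p below 0.0286. Over 20 libraries in which Ucp1 ranged 111-fold, this ratio ran from 0.517 to 4.98.

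Dual mouse 15 stood apart in the makeup of its brown fat genes. Its ratio of Ucp1 to Adipoq was 0.517, against 3.62 to 4.98 in the other 3 dual mice, and the difference of dual from HDL was 0.53 on the log2 scale without it, with an exact permutation p of 0.143. Cidea over Ucp1 was 2.72 in this mouse and 0.107 to 0.602 in the other 19 libraries. Measured from the line of each gene on the pan-adipocyte mean, mouse 15 was the lowest of 20 libraries for Ucp1 (-2.2 log2 units), Dio2 (-2.74) and Elovl3 (-2.06). The same library was also below that line for Ppargc1a (-0.60, with a residual SD of 0.466 over 20 libraries). It was closer to the line for Cidea (0.26), Pdk4 (-0.02), Kcnk3 (-0.34), Cpt1b (0.32) and Prdm16 (-0.24), and above it for Adrb3 (0.83). Its Adipoq was 363 FPKM and its Cox8b and Cox7a1 were 538 and 206 FPKM, near the top of the 20 libraries, and its Lep was the highest. Dual mouse 8 showed the opposite for the same genes, the highest above the line for Dio2 (2) and Elovl3 (1.67), with Ucp1 0.88 above it. Without mouse 8 the difference of dual from HDL was -0.15 for Dio2 and -0.34 for Elovl3, against 0.89 and 0.63 with it.

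**Figure D5:**
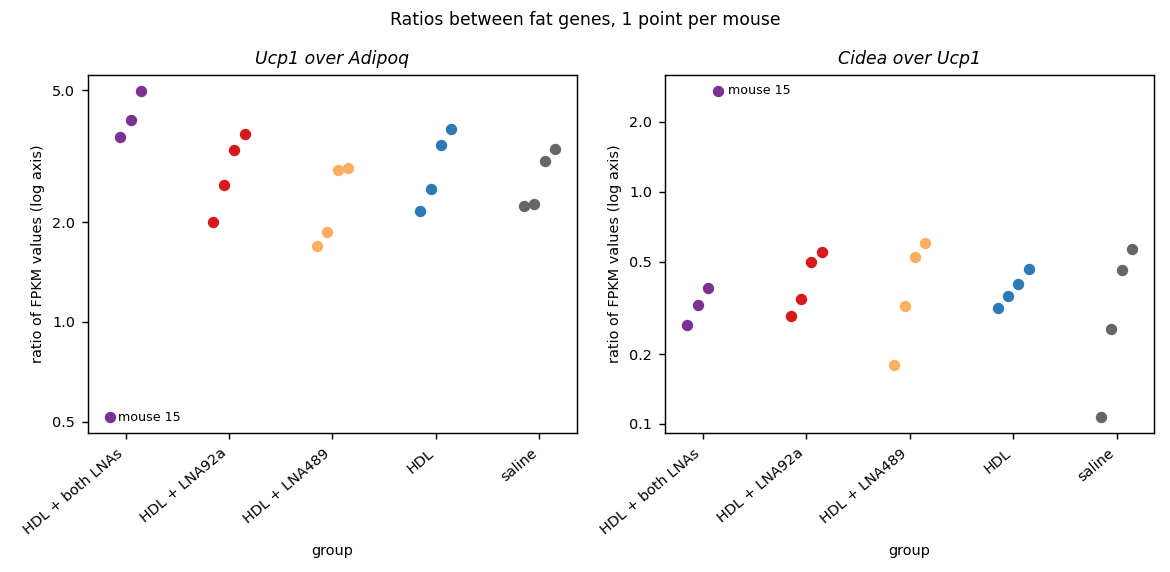
Ratio of Ucp1 to Adipoq FPKM and of Cidea to Ucp1 FPKM (y axes, log scale) by group (x axis), 1 point per mouse. The points of 19 mice lie between 1.69 and 4.98 in the first panel; dual mouse 15 lies at 0.517 there and at 2.72 in the second panel.

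The spread that was left after the line on the pan-adipocyte mean differed between genes. For Cidea the SD over 20 libraries was 2.41 before and 0.565 after, with 94.5% of its variance shared with the pan-adipocyte mean. Ucp1 had an SD of 2.27 before and 0.75 after (89.1% shared), and Kcnk3 2.15 before and 0.673 after (90.2%). Dio2 kept the widest residual spread, 1.62 before and 0.913 after (68.2%), followed by Elovl3 with 1.85 before and 0.847 after (79.1%). Prdm16 shared 40.2%. The slope on the pan-adipocyte mean was 1.3 for Ucp1, 1.42 for Cidea and 1.24 for both Kcnk3 and Pdk4, while it was 0.81 for Dio2 and for Adrb3. For Cpt1b, the gene with the fewest reads, it was 0.49. These slopes have no standard error here and rest on variance-stabilized values, where 0 reads gave 4.21. Ucp1 over Adipoq FPKM was 2.525, 3.32 and 3.62 in HDL mouse 3, saline mouse 9 and dual mouse 21, lowest in that mean. It was 3.43, 3.3 and 1.87 in HDL mouse 4, LNA92a mouse 12 and LNA489 mouse 7, the highest. Against Adipoq alone, Ucp1 thus did not rise faster between these libraries. Whether the 10 genes rise faster than fat content was not tested.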

How the data were processed

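Per the file headers, the deposited tables have 1 column per mouse: FPKM for 32081 genes, with symbol and gene length, and variance-stabilized values for 20442 genes, which the authors gave on a log2 scale. The submitters' processing notes name DESeq2 1.18.1, featureCounts 1.15.29, FastQC, STAR 2.5.3a, cutadapt 1.16 and build GRCm38.p5, without roles. The counting strand and annotation release are not stated there. Read numbers were recovered from FPKM and gene length, and 100% of those tested came out whole to within 0.1 read.

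Group differences came from limma 3.58.1 (R 4.3.3) on the log2 values of the 20 libraries, for the 16848 genes with a mean FPKM of at least 0.5, with Benjamini-Hochberg adjustment at 0.05. Correlations had 100000 permutations and ratios exact permutation tests (Python 3.11.15, SciPy 1.17.1). Scripts were tested on simulated data. Alternatives were log2 of FPKM plus 0.1 or 1, other filters, library weights, voom, the pan-adipocyte covariate and leaving out libraries. The 10 genes and all lists were chosen with earlier results of these data known. The genes named are the members, the 3 most abundant of each list, the 8 most like Ucp1, the 1 nearest to each other member, and Adipoq, Pecam1, Tnni3, Myh6, Acta2, Cox7a1, Cox8b, Lep and Nnat. The ratio of Cidea to Ucp1, the split at the gap of the pan-adipocyte mean and the relations to lists other than pan-adipocyte and cardiac were chosen after seeing the data. Fgf21 and Gatm were not analysed here. Gene coordinates are those of GENCODE M21 on GRCm38.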

Additional observations from a re-analysis of the deposited data

Results flagged for a closer look

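In each group of 4 mice the highest and lowest value of every member and of each ratio was compared with the gap to its nearest neighbour, which by chance marks about 1 in 20 groups. Of 60 groups looked at, 4 had a value far from the rest. Ucp1 in LNA489 mouse 13 was 9.49 log2 units, below 13.53 to 13.67 in the other 3 LNA489 mice. Kcnk3 in dual mouse 21 was 6.48 log2 units, below 10.78 to 11 in the other 3 dual mice. The log2 ratio of Ucp1 to Adipoq in dual mouse 15 was -0.95, below 1.86 to 2.32 in the other 3, and the log2 ratio of Cidea to Ucp1 in the same mouse was 1.44, above -1.91 to -1.37. The last ratio was chosen after its values were seen. LNA489 mouse 13 and dual mouse 21 also had low pan-adipocyte means, 10.2 and 9.11, whereas dual mouse 15 had 13.3, and the part of fat content in the first 2 values was not tested.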

How the results depend on the processing

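Under every alternative run, and without each library in turn, 0 of the 10 genes were called by limma in any comparison. With the pan-adipocyte mean in the model, 29 member differences turned sign. For LNA92a against HDL these were Ucp1 (-0.11), Cidea (-0.38), Ppargc1a (-0.20), Prdm16 (0.31), Cpt1b (-0.57), Kcnk3 (-0.42), Adrb3 (-0.47) and Pdk4 (-0.28). For LNA489 against HDL they were Ucp1 (-0.73), Cidea (-1.06), Elovl3 (-0.33), Ppargc1a (-0.18), Kcnk3 (-0.96), Adrb3 (-0.28) and Pdk4 (-0.81). For dual against HDL they were Ucp1 (-0.74), Cidea (-0.40), Elovl3 (-0.54), Ppargc1a (-0.10), Prdm16 (0.13), Adrb3 (-0.48) and Pdk4 (-0.42). For HDL against saline they were Ucp1 (0.63), Elovl3 (0.33), Ppargc1a (0.011), Cpt1b (0.029), Kcnk3 (0.17), Adrb3 (0.093) and Pdk4 (0.73). Other settings turned HDL against saline for Cidea with library weights (-0.62), for Elovl3 (0.81), Adrb3 (0.052) and Pdk4 (0.0496) with voom, and for Pdk4 on log2 FPKM plus 0.1 (0.057) or plus 1 (0.0038). The LNA92a difference in the log2 ratio of Ucp1 to Adipoq was 0.16 with Plin1 in place of Adipoq and 0.037 from variance-stabilized values. With Plin1 it was -0.62 for LNA489, -0.68 for dual and 0.55 for HDL against saline, with exact permutation p of 0.0571, 0.486 and 0.114 and adjusted p of 0.229, 0.648 and 0.229, against -0.36, -0.23 and 0.11 with Adipoq. Below the gap in the pan-adipocyte mean, r for Prdm16 was 0.089, and the other 9 genes no longer passed an adjusted permutation p of 0.05. The cause of these turns was not tested.

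Leaving out 1 library at a time, differences that turned sign ranged as follows. For LNA92a, Prdm16 ran from -0.83 to 0.11 and Cpt1b from -0.0501 to 0.88. For dual, Ucp1 ran from -0.022 to 2.09, Dio2 from -0.15 to 1.69, Elovl3 from -0.34 to 1.57, Prdm16 from -0.77 to 0.16 and Adrb3 from -0.25 to 1.35. For HDL against saline, Ucp1 ran from -1.29 to 0.72, Cidea from -1.28 to 0.97, Elovl3 from -1.08 to 0.50, Ppargc1a from -1.38 to 0.11 and Prdm16 from -0.20 to 0.90. In the same comparison Cpt1b ran from -0.80 to 0.13, Kcnk3 from -1.77 to 0.56, Adrb3 from -1.135 to 0.081 and Pdk4 from -1.24 to 0.78. The log2 ratio of Ucp1 to Adipoq ran from -0.19 to 0.12 for LNA92a, from -0.56 to 0.53 for dual and from -0.016 to 0.26 for HDL against saline.

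On log2 FPKM plus 0.1 the median of all genes was -0.47 for LNA92a against HDL, where the median of the members was 1.68. No paired analysis was possible because animal numbers differ between all groups. With 4 mice a group, and Ucp1 spreading at least 10.2-fold inside each, large differences could go uncalled.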
